A study of Mus musculus with 4 samples.

Results

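The cells described here carry the name Mono_Ly6c2 in the authors' deposited annotation, 1 of 3 monocyte names in a data set of immune cells from mouse mammary tumours. They were taken as every barcode whose deposited name, before its bracketed remark, was Mono_Ly6c2. The annotation held 2404 such barcodes among 45781. Counts were at hand for 517 of them among 16383 cells: 368 of 13162 barcodes ending in suffix 1 and 149 of 3221 ending in suffix 2. The annotation held the same 368 of 13162 in suffix 1 but 534 of 11961 in suffix 2. Levels of suffix 2 thus describe a part of its cells. The study grew tumours of 4T1, a mammary carcinoma line of BALB/c mice, and compared wild-type tumours (2 samples) with Mif-depleted tumours (2 samples), where Mif encodes macrophage migration inhibitory factor. Each sample pooled cells of 3 dissociated tumours. Living cells (negative for propidium iodide) that carried CD45, the surface protein shared by blood-derived cells, were sorted and run by droplet single-cell RNA sequencing. No label ties a barcode suffix to a sample, so wild-type and Mif-depleted tumours were not compared, suffix 1 and suffix 2 are described apart, and no p-value is given.

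Classical monocytes leave the bone marrow through the chemokine receptor CCR2, carry Ly6C in mice, and enter inflamed tissue and tumours, where they turn into macrophages or dendritic-like cells. Nonclassical monocytes depend on the nuclear receptor Nr4a1 and patrol the vessel wall. Incoming monocytes are known for interleukin-1, prostaglandin and tissue factor production, and as they become macrophages they commonly take up complement C1q expression.

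Levels are unique molecular identifiers (UMIs, counted molecules) of a gene per 10000 counted UMIs, summed over the cells of a name. The deposited table ends within chromosome 5: it held 4099 complete gene rows, and Ly6c2 and Ccr2 were not analysed here. Intervals are 95%, exact, and cover counting error only. A gene counts as higher or lower where the whole interval of its ratio lay beyond 2-fold, over genes with 50 or more UMIs on both sides together. The names were given to these same cells, so a difference between names describes them and is no test. The median Mono_Ly6c2 cell had 1808 counted UMIs in suffix 1 and 1638 in suffix 2, and 41 and 9 cells had fewer than 500. The summed depth was 764191 and 271492 UMIs. In suffix 1 the median was 2170 for Mono_Nr4a1, 3457 for Macro_Vegfa, 3652 for Macro_Maf and 1120 for neutrophils.

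Mono_Ly6c2 barcodes made up 2.80% (exact interval 2.52 to 3.09) of annotated cells in suffix 1 and 4.46% (4.10 to 4.85) in suffix 2. Both are over all annotated barcodes, with or without counts. The share was 9.38% (8.80 to 9.99) in suffix 3 and 5.54% (5.12 to 5.97) in suffix 4, for which counts were not analysed here. The intervals of the 4 suffixes did not overlap. Of the barcodes with any monocyte name, Mono_Ly6c2 made up 57.5%, 78.0%, 87.1% and 74.4% in suffixes 1 to 4. Mono_Nr4a1 varied less, between 1.06% and 1.76% of annotated cells. The cells had been sorted for CD45 before they were counted. Pairs of suffixes shared 24 to 42 barcode sequences over all cells, and 1 of them carried the name Mono_Ly6c2 in both, in suffixes 2 and 4.

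**Figure D1:**
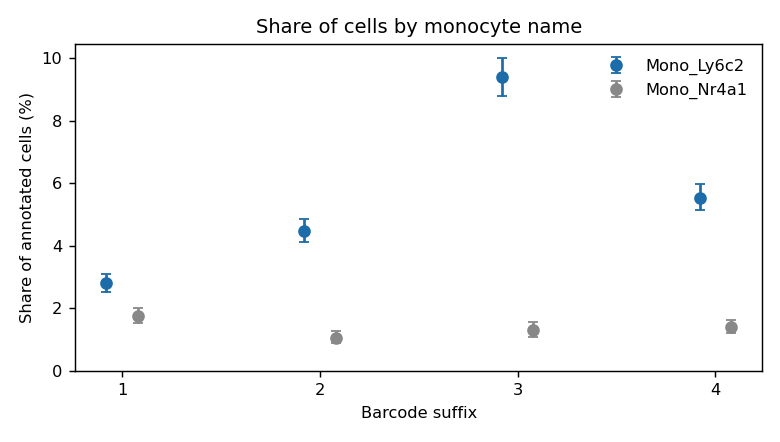
Share of annotated cells named Mono_Ly6c2 (blue) and Mono_Nr4a1 (grey) in each barcode suffix (percent), with exact 95% binomial intervals as error bars. The 4 Mono_Ly6c2 shares run from 2.80% in suffix 1 to 9.38% in suffix 3, and their intervals do not overlap.

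The name was checked against markers of monocytes and other cell types. Of 16 classical monocyte markers 6 were in the table. Of these 4 stood higher than in all other cells of suffix 1 and 3 in suffix 2 (2.76% and 2.92% of all genes), among them Fn1, Chil3 and Thbs1. Their summed level was 422 in suffix 1 and 463 in suffix 2, against 251 and 256 in all other cells. By that sum Mono_Ly6c2 took rank 3 of the 23 names in both suffixes, and epithelial cells were highest at 606 and 683. Markers of lymphocytes were near 0: the 8 measured T cell markers summed to 1.07 and 0.958, and all 8 were lower in both suffixes. The 6 fibroblast markers summed to 0.209 and 0.589, and all were lower. Over all genes 6.15% were lower in suffix 1 and 4.99% in suffix 2. The 8 measured macrophage markers summed to 157 and 162, against 610 and 610 in Macro_Maf, and the 11 neutrophil markers to 496 and 131, against 6177 and 6073 in neutrophils. Their part in the results below was not tested.

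Against all other cells, 97 of 3514 genes (2.76%) were higher and 216 (6.15%) lower in suffix 1. In suffix 2 these were 90 of 3087 (2.92%) and 154 (4.99%). In both suffixes 61 genes were higher, 62.9% of the suffix 1 calls and 67.8% of those of suffix 2, and 119 were lower, 55.1% and 77.3%. The median log2 ratio of all genes was 0.04 in suffix 1 and -0.15 in suffix 2. The split depends on the neutrophil genes S100a8 and S100a9, which took a large share of all UMIs in the other cells. With both left out of the totals the median was -0.30 and -0.33, and 56 genes were higher and 304 lower in suffix 1, 54 and 192 in suffix 2. Counted as UMIs per cell the median was -0.07 and -0.72, and 79 were higher and 244 lower in suffix 1, and 31 and 337 in suffix 2. Against cells with a myeloid name alone, 112 were higher and 69 lower in suffix 1, and 69 and 67 in suffix 2.

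Thbs1 encodes thrombospondin-1, a matrix glycoprotein that activates latent transforming growth factor beta and restrains vessel growth, and lies at chr2:118111876-118127133 (GRCm38, plus strand). It had the highest ratio in suffix 1 and came after Thbd in suffix 2 among the leading genes. Its level was 57.2 in Mono_Ly6c2 cells against 3.17 in all other cells of suffix 1, a log2 ratio of 4.17 (4.12 to 4.22). In suffix 2 it was 32.6 against 3.11, a log2 ratio of 3.39 (3.28 to 3.50). The marker set it apart from macrophages and lymphocytes rather than from other monocytes. Mono_Nr4a1 cells held Thbs1 at 30.6 in suffix 1 and 29.5 in suffix 2, a log2 ratio of 0.90 (0.82 to 0.99) and 0.14 (-0.08 to 0.37), neither beyond 2-fold. Fibroblasts held it at 29.5 and 30.5, and the small name Mono_Itgal at 39.8 over 41 cells in suffix 1 and 76.8 over 5 cells in suffix 2, where Mono_Ly6c2 ranked second.

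Thbd encodes thrombomodulin, the cofactor with which thrombin activates protein C, and lies at chr2:148404466-148408188 on the minus strand. Its level was 3.66 against 0.273 in suffix 1 (log2 ratio 3.75) and 2.84 against 0.264 in suffix 2 (3.43). Mono_Nr4a1 had 3.34 in suffix 1, and the ratio of the 2 names, 0.14 on the log2 scale (-0.14 to 0.41), did not part them. Tgm2 encodes the crosslinking enzyme transglutaminase 2 (chr2:158116402-158146436, minus strand). Its level was 20.5 against 4.55 in suffix 1 and 25.4 against 6.24 in suffix 2, log2 ratios of 2.17 and 2.02. Unlike Thbs1 and Thbd, Tgm2 also parted the monocyte names: Mono_Nr4a1 had 3.73 and 5.12, log2 ratios of 2.46 and 2.31. Mono_Ly6c2 had the highest Tgm2 of the 23 names compared in both suffixes, ahead of Macro_Ccl12 at 16.7 and 21.2. Cd44, the hyaluronan receptor (chr2:102811141-102901665, minus strand), was likewise highest of the 23 names in both suffixes. Its level was 43.7 against 13.3 and 51.8 against 13.5, log2 ratios of 1.72 and 1.94. All 4 markers stayed beyond 2-fold in both suffixes under each of the 3 other scalings and reference sides above.

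**Figure D2:**
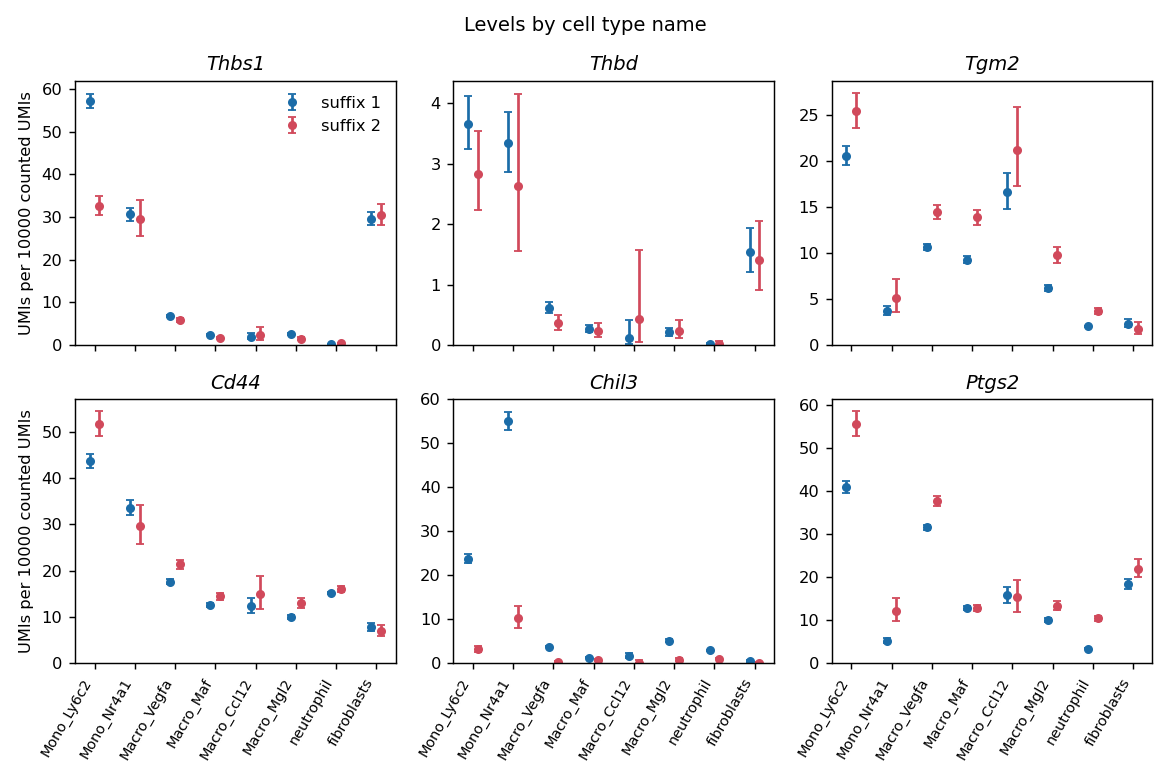
Levels of 6 genes (UMIs per 10000 counted UMIs, linear axis) in Mono_Ly6c2 cells and 7 other names, suffix 1 in blue and suffix 2 in red, with exact 95% Poisson intervals. Thbs1 stands at 57.2 and 32.6 in Mono_Ly6c2 and at 30.6 and 29.5 in Mono_Nr4a1, whereas Chil3 is highest in Mono_Nr4a1.

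The 15 leading genes hold several surface and secreted proteins. They were named by their ratio in suffix 1, among genes with the suffix 2 interval above 1. Cd93, a C-type lectin-like receptor of myeloid and endothelial cells, stood at 5.84 against 1.03 in suffix 1 and 5.19 against 1.24 in suffix 2. Chil3, which encodes the secreted chitinase-like protein Ym1, stood at 23.8 against 3.48 and at 3.28 against 0.509. Its log2 ratio, 2.78 and 2.69, was close in the suffixes although its level was not. Plcb1, a phospholipase C that signals from G protein-coupled receptors, stood at 1.99 against 0.185 and 1.58 against 0.16. Pid1, a phosphotyrosine-binding domain protein of insulin signalling, was highest of the 23 names in both suffixes, at 6.79 and 7.88. Errfi1, a feedback inhibitor of epidermal growth factor receptor signalling, stood at 13.03 against 2.65 and 16.2 against 3.03. After thinning each suffix 1 cell to 500 UMIs, Plcb1 had a UMI in 8.26% of Mono_Ly6c2 and 10.9% of Mono_Nr4a1 cells. The shares were 24.5% and 23.0% for Cd93 and 47.7% and 71.7% for Chil3. For Pid1 they were 26.3% and 17.0%, and for Errfi1 33.0% and 19.1%. By these shares Plcb1, Cd93 and Chil3 were not particular to Mono_Ly6c2 among monocytes. All 15 were higher in suffix 1 under each scaling, and in suffix 2 14 were, Zfyve9 (1.62) being the exception, with 12 or 13 under the other scalings and sides. The naming rule required the suffix 1 call and a suffix 2 ratio above 1, so these counts are no independent check.

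Ptgs2 and Il6 stood among the leading genes. Ptgs2 encodes cyclooxygenase-2, the inducible enzyme of prostaglandin synthesis, at chr1:150100031-150108227 on the plus strand. Its level was 41.0 against 9.52 in suffix 1 and 55.8 against 12.6 in suffix 2, log2 ratios of 2.11 and 2.15. Il6, at chr5:30013114-30019981 on the plus strand, encodes interleukin-6, a cytokine of the acute phase. Its level was 2.80 against 0.554 and 3.43 against 0.572, log2 ratios of 2.34 (2.13 to 2.54) and 2.58. Il6 came from few cells: 33 of 368 had a UMI in suffix 1 and 5 of them held 61.2% of the molecules. In suffix 2 it was 15 of 149 cells, and 5 held 75.3%. Ptgs2 was spread more widely, with 20.6% of its suffix 1 molecules in the 5 cells that had most. Fibroblasts had more Il6 than Mono_Ly6c2 cells, at 4.34 and 7.59. After thinning each cell to 500 UMIs, an Il6 UMI was seen in 4.28% and 6.43% of Mono_Ly6c2 cells. Macro_Vegfa was close, at 5.56% and 4.35%, while Macro_Maf had 1.52% and 0%.

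The 200 bases before the start of Ptgs2, Il6 and Chil3 are shown because the level of Cebpb, which encodes the myeloid factor C/EBP-beta, was the highest of any gene in Mono_Ly6c2 cells of suffix 1, and matches to a motif of that family lie in all 3 windows. They were chosen after the matches were seen. They are RefSeq promoters of GRCm38.p6, written in the direction of the gene, at chr1:150099831-150100030 (plus), chr5:30012914-30013113 (plus) and chr3:106167565-106167764 (minus). Capitals mark matches to the motifs searched on both strands: C/EBP (TTNNGNAA), AP-1 (TGANTCA), the core of a cyclic AMP response element (TGACGT), the TATA box (TATAAA) and the kappaB motif.
Ptgs2: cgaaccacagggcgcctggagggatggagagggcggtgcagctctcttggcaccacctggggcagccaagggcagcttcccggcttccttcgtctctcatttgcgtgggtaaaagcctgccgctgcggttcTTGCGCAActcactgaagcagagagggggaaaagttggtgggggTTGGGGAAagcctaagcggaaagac
Il6: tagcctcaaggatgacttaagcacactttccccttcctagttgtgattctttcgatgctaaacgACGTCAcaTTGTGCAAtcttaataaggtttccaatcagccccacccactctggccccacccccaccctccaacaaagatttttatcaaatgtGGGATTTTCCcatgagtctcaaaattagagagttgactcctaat
Chil3: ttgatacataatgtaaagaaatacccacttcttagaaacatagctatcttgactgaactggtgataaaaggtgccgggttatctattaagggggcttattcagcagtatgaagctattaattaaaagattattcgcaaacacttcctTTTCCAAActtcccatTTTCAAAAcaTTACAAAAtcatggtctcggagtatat
The C/EBP matches start 69 and 25 bases before the Ptgs2 start, 128 before that of Il6, and 53, 37 and 27 before that of Chil3. Il6 has the response element core 136 bases and the kappaB motif 44 bases before its start. None of the marked matches overlap. Over 250 bases, C/EBP matches occur in 36.8% of the 32851 promoters of the table and in 5 of the 10 leading genes with an entry (Ptgs2, Il6, Chil3, Zfyve9 and Ifi207). AP-1 matches occur in 6.75% of all promoters and 3 of the 10 genes, the response element core in 6.47% and 2, kappaB in 3.90% and 1, and TATA in 12.4% and 2. A match describes the letters only.

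Cebpb (chr2:167688915-167690418) stood at 264 in suffix 1 and 242 in suffix 2, and no other of the 23 names was higher in either suffix. Mono_Nr4a1 was close, at 245 and 201, while Macro_Vegfa had 161 and 129. Of 9 measured myeloid transcription factors 4 were higher than in all other cells in both suffixes, a share above the 2.76% and 2.92% of all genes. Klf4, a factor needed for monocyte development, stood at 23.7 against 7.81 in suffix 1, a log2 ratio of 1.60 (1.77 in suffix 2). Zeb2, a repressor that helps fix the monocyte and macrophage fate, stood at 32.5 against 10.4 (1.65, and 1.76 in suffix 2). Spi1, which encodes the myeloid master factor PU.1, stood at 17.7 against 12.9 and was not beyond 2-fold. With S100a8 and S100a9 out of the totals 3 of 9 were higher in suffix 1, and by UMIs per cell 3 in each suffix.

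Of 8 inflammatory cytokine and receptor genes 2 were higher in suffix 1 and 4 in suffix 2 (2.76% and 2.92% of all genes), and 1 was lower in each (6.15% and 4.99% of all genes). The list had a median log2 ratio of 0.96 and 1.09, against 0.04 and -0.15 over all genes. Il1a, which encodes the alarmin interleukin-1 alpha, stood at 17.2 against 5.39 and 22.2 against 6.07. Il1b, the secreted interleukin-1, stood at 154 against 76.0 in suffix 1, a log2 ratio of 1.02 (1.00 to 1.05) that lies at the 2-fold bound and was not counted. In suffix 2 it was 189 against 69.0 (1.46) and was counted. Tnfrsf9, the costimulatory receptor 4-1BB, was the lower gene in suffix 1, and Csf1, the macrophage growth factor, in suffix 2. By UMIs per cell only Il1a and Il6 were higher in suffix 2.

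Interferon-stimulated genes had 8 of 16 members higher in suffix 1 and 6 of 16 in suffix 2 (2.76% and 2.92% of all genes), with a median log2 ratio of 1.20 and 1.08. With S100a8 and S100a9 out of the totals, and also by UMIs per cell, these counts were 6 and 3. Ifi204, a DNA sensor of the Ifi200 family, stood at 7.25 against 1.69 in suffix 1. Gbp2, an interferon-induced GTPase, stood at 3.94 against 1.70. Isg15, the ubiquitin-like product that responds most broadly to type I interferon, was not beyond 2-fold, at 7.04 against 4.17. The Ifi200 genes lie side by side on chromosome 1 and resemble each other closely, so reads could be split among them. Of 12 tested, 7 were higher in suffix 1 and 6 in suffix 2, while Aim2, the inflammasome sensor of the family, had log2 ratios of 0.00 and -0.53.

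Receptors for microbial products and antibodies were among the higher genes: 4 of 8 Toll-like and Fc receptors were higher in each suffix (2.76% and 2.92% of all genes), with a median log2 ratio of 1.24 and 1.34. By the scalings the count was 2 or 3. Tlr2, which reads bacterial lipoproteins, stood at 11.5 against 4.71 in suffix 1 and had a log2 ratio of 1.28, and 1.74 in suffix 2. Fcgr1, the high-affinity receptor for IgG, stood at 11.6 against 2.72 in suffix 1. Fcgr2b, the inhibitory Fc receptor, stood at 25.0 against 8.02. Tlr4, the receptor of endotoxin, stood at 3.02 against 1.31 in suffix 1.

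Of the coagulation and fibrinolysis genes, 4 of 9 were higher in suffix 1 and 2 of the 8 tested were in suffix 2 (2.76% and 2.92% of all genes). In both it was Thbd and Tgm2, and in suffix 1 also F5, coagulation factor V (1.23 against 0.485), and Serpinb2, an inhibitor of plasminogen activators. Serpinb2 rested on 71 UMIs in 13 cells, 88.7% of them in 5. F3, tissue factor, was not beyond 2-fold, at 0.968 against 0.838. Of 13 adhesion and migration genes 5 were higher in each suffix (again beside 2.76% and 2.92%), among them Cd44, Cd93 and Pdpn, a sialoglycoprotein (3.22 against 1.27 in suffix 1). Of the 13, 3 were lower in suffix 1 and 1 in suffix 2 (6.15% and 4.99% of all genes). By UMIs per cell 4 and 2 were higher. Fn1, fibronectin, was a higher gene of the matrix list, at 83.6 against 27.9 and a log2 ratio of 1.58 (1.66 in suffix 2), while Mmp9, gelatinase B, was lower in both, at 2.63 against 20.1 in suffix 1.

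Of 1446 genes with 50 or more UMIs in Mono_Ly6c2 cells of suffix 1, 54 (3.73%) were at their highest in this name among the 23 compared, and 47 of 787 (5.97%) were in suffix 2. In both suffixes it was 19 genes. Beside Tgm2, Cd44, Cebpb, Pid1 and Zeb2 they included Mcl1, an antagonist of apoptosis (95.2 against 50.3 in all other cells of suffix 1, 87.7 against 39.6 in suffix 2), and Bcl2l11, which encodes the pro-apoptotic protein Bim (13.2 against 6.82 and 12.9 against 5.90). Plin2, a coat protein of lipid droplets, stood at 43.4 against 23.4 and 40.3 against 17.2. Ptafr, the receptor of platelet-activating factor, stood at 14.7 against 7.48 and 21.03 against 5.95, and Smox, a spermine oxidase, at 12.9 against 4.76 and 15.2 against 5.50. Names of few cells have wide intervals, so a rank near the top is loosely placed.

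Some ratios rested on few cells. Fabp4, a fatty acid carrier, had 106 UMIs in Mono_Ly6c2 cells of suffix 1, of which 96 (90.6%) came from 1 cell. Fabp3, a relative of Fabp4, had 24 UMIs in 8 cells of suffix 2. Of 8 lipid handling genes 1 was higher in each suffix, with 1 lower in suffix 2. Of 6 glycolysis genes 1 was higher in suffix 1 and none in suffix 2, and of 5 prostaglandin synthesis genes Ptgs2 alone was higher in each. Of 5 osteoclast markers 4 were lower in suffix 1 and 5 in suffix 2, with summed levels of 4.46 and 6.89. Over all genes 2.76% were higher and 6.15% lower in suffix 1, and 2.92% and 4.99% in suffix 2. The 5 dendritic cell markers summed to 1.70 and 1.44, against 1.18 and 1.40 in all other cells.

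Lists of housekeeping, antigen presentation and proliferation genes were also counted. None of 12 ribosomal protein, 12 respiratory chain and 5 antigen presentation genes was higher or lower in either suffix. By UMIs per cell 1 ribosomal protein and 2 respiratory chain genes were lower in suffix 2. Most genes of the table were not called either (2.76% higher and 6.15% lower in suffix 1, 2.92% and 4.99% in suffix 2). Lists this short therefore cannot be told from all genes by an absence of calls. Of 19 cell cycle genes 15 were lower in suffix 1 and 11 in suffix 2 (6.15% and 4.99% of all genes), and none was higher. Against myeloid names alone 12 and 8 were lower, where over all genes 69 of 3173 and 67 of 2751 were. The 10 lowest genes by ratio in suffix 1 were taken among those with the suffix 2 interval below 1. They included the matrix genes Postn (0.0131 against 1.13), Col3a1 (0.131 against 9.97), Col6a3 and Fbn1, and lymphocyte genes such as Gata3 and Il18r1. In Mono_Ly6c2 cells of suffix 1 Col3a1 had 10 UMIs and the other genes named here 1 UMI each. Their order is thus loosely placed, as for Postn at a log2 ratio of -6.43 (-11.7 to -3.95). Against cells with a myeloid name alone 3 of the 10 were lower in suffix 1 and 1 in suffix 2.

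**Figure D3:**
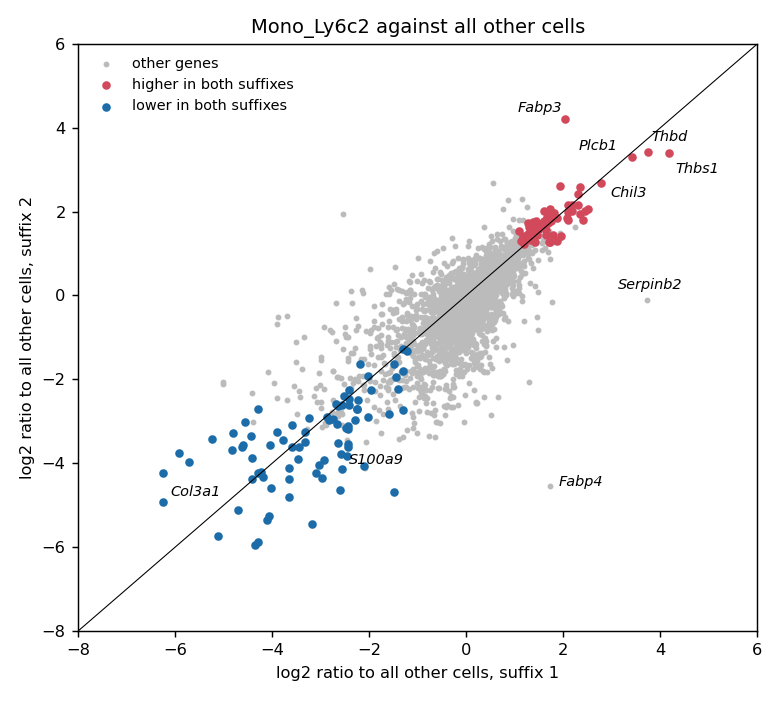
Log2 ratio of Mono_Ly6c2 cells to all other cells in suffix 1 (horizontal axis) and suffix 2 (vertical axis) for the 2788 tested genes with a UMI in Mono_Ly6c2 cells of each suffix, with the line of equal ratios. The 61 genes higher in both suffixes are red and 81 lower in both are blue, and Thbs1 lies at 4.17 and 3.39.

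**Figure D4:**
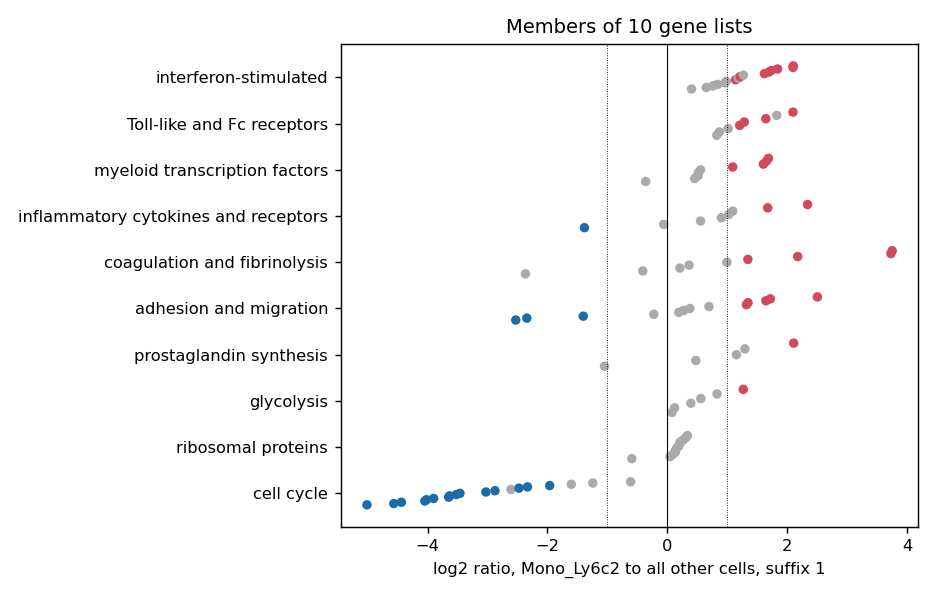
Log2 ratio of Mono_Ly6c2 cells to all other cells of suffix 1 for the members of 10 gene lists, each point 1 gene, red where higher and blue where lower beyond 2-fold by the whole interval, grey otherwise. Dotted lines mark 2-fold. The 16 interferon-stimulated genes have a median of 1.20, and 15 of 19 cell cycle genes are lower.

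Against Mono_Nr4a1, the other large monocyte name, 69 of 1765 genes (3.91%) were higher and 15 (0.85%) lower in suffix 1. In suffix 2, where the name had 26 cells, these were 32 of 904 (3.54%) and 7 (0.774%), and by UMIs per cell 14 and 25. That scaling moved the median log2 ratio of all genes from -0.09 to -0.25 in suffix 1 and from 0.08 to -0.45 in suffix 2. Of the higher genes 24 were so in both suffixes. The inflammatory cytokine genes were among them: 5 of 8 were higher in suffix 1 and 4 of 7 in suffix 2, with a summed level of 199 against 75.5 and 242 against 71.8. Il1a stood at 17.2 against 1.21 in suffix 1, a log2 ratio of 3.83, and at 22.2 against 1.32 in suffix 2, 4.08. Il1b stood at 154 against 53.6 and 189 against 51.3. Ptgs2 stood at 41.0 against 5.29 and 55.8 against 12.3, while Chil3 was lower in Mono_Ly6c2 cells in both suffixes, at 23.8 against 55.1 and 3.28 against 10.4.

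Other genes parted the monocyte names too. Pdpn stood at 3.22 against 0.186 in suffix 1 (log2 ratio 4.11), Ackr3, an atypical receptor that removes the chemokine CXCL12, at 3.28 against 0.224 (3.88), and Sdc4, a heparan sulfate proteoglycan, at 15.3 against 1.42 (3.43). Ube2c, an enzyme of mitotic exit, was lower, at 0.183 against 2.16 (-3.56), as was F5, at 1.23 against 4.16. Of the macrophage markers 5 of 8 were higher in Mono_Ly6c2 cells in suffix 1 and 4 in suffix 2 (3.91% and 3.54% of all genes). C1qa stood at 7.85 against 3.24 and 7.22 against 1.46, although cells with a C1qa UMI were no more frequent than among B cells. The part of macrophage cells or RNA in these differences was not tested.

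Macrophage names gave the other reference. Against Macro_Vegfa, 37 of 2508 genes (1.48%) were higher and 47 (1.87%) lower in suffix 1, and 22 of 1842 (1.19%) and 26 (1.41%) in suffix 2. By UMIs per cell, where macrophages have more, it was 8 higher and 463 lower in suffix 1, and 4 and 424 in suffix 2. Against Macro_Maf, 76 of 2528 (3.01%) were higher and 137 (5.42%) lower in suffix 1, and 50 of 1809 (2.76%) and 53 (2.93%) in suffix 2. By UMIs per cell these were 17 and 943, and 17 and 490. The median log2 ratio of all genes moved with that scaling, from -0.14 and -0.08 to -0.99 and -1.16 against Macro_Vegfa, and from -0.28 and -0.16 to -1.23 and -1.15 against Macro_Maf. Across the 3514 and 3087 tested genes, log levels of Mono_Ly6c2 correlated with those of Macro_Vegfa at r 0.976 and 0.962, with Mono_Nr4a1 at 0.967 and 0.917, and with Macro_Maf at 0.953 and 0.934. These are correlations across genes within the same suffix and describe likeness only.

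Both macrophage names lacked most of the Thbs1, at 6.74 in Macro_Vegfa and 2.43 in Macro_Maf of suffix 1. Slpi, an inhibitor of leukocyte proteases, stood at 49.9 against 10.0 and 4.83, and S100a4, a calcium-binding protein of motile cells, at 78.9 against 20.0 and 10.9. The complement genes went the other way. C1qa stood at 7.85 against 98.9 in Macro_Vegfa (log2 ratio -3.65) and 186 in Macro_Maf (-4.57). The interleukin-1 genes did not part Mono_Ly6c2 from Macro_Vegfa: Il1b stood at 154 against 180 in suffix 1 and 189 against 182 in suffix 2, and Il1a at 17.2 against 18.01 and 22.2 against 20.1. Replication genes were lower than in Macro_Maf, with Mcm6 at 0.0523 against 2.23. Of the tested cell cycle genes 11 of 17 were lower in suffix 1 and 4 of 7 in suffix 2 (5.42% and 2.93% of all genes).

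Single cells were compared after thinning each to 500 UMIs, which left 327 of 368 cells in suffix 1 and 140 of 149 in suffix 2. Thbs1 had a UMI in 59.0% (53.5 to 64.4) and 42.1% (33.9 to 50.8) of them, against 68.8% and 51.7% before thinning. In suffix 1 the thinned share was 41.7% in Mono_Nr4a1, 12.5% in Macro_Vegfa, 7.73% in Macro_Maf and 1.44% in B cells, which should lack the gene. In suffix 2 it was 46.2% of the 26 Mono_Nr4a1 cells (26.6 to 66.6), no lower than in Mono_Ly6c2, and 11.5%, 6.99% and 1.94% in the other 3 names. Tgm2 had a UMI in 56.6% and 51.4% of Mono_Ly6c2 cells, against 1.98% and 10.0% of B cells and 13.04% and 15.4% of Mono_Nr4a1 cells. Cd44 had one in 82.6% and 82.9%, against 10.3% and 16.4% of B cells. Ptgs2 had one in 49.2% and 50.7%. Macro_Vegfa was close to that, at 48.7% and 52.2%, while Mono_Nr4a1 stood at 13.04% in suffix 1 but had 13 of 26 cells (29.9 to 70.1%) in suffix 2. B cells had a Ptgs2 UMI in 2.97% and 8.06%. Thbd had one in 14.1% and 12.1%, against 0.989% and 0.833% of B cells. Cebpb had one in 99.7% and 100% of cells, but also in 55.7% and 45.0% of B cells, so a Cebpb UMI alone does not mark the name. The source of the Cebpb UMIs in B cells was not tested. B cells had a median of 558 UMIs in suffix 1 and 1352 in suffix 2 before thinning.

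Within the name, Thbd had a UMI in 18.1% of the cells with a Thbs1 UMI and 8.21% of those without in suffix 1, and in 22.0% and 4.94% in suffix 2. Cd93 had one in 30.1% and 16.4%, and in 25.4% and 16.05%. Other leading genes went the other way: Pid1 had one in 24.4% of the cells with Thbs1 and 29.1% of those without in suffix 1, and in 22.0% and 30.9% in suffix 2. Arhgef10l had one in 4.15% and 8.96%, and in 6.78% and 7.41%. Cells of 1 suffix are not replicates, and none of these differences was tested. C1qa had a UMI in 17.7% and 16.4% of thinned Mono_Ly6c2 cells, at or below the 19.3% and 21.4% of B cells. In Mono_Nr4a1 it was 12.2% in suffix 1 and 0 of 26 cells in suffix 2. Before thinning, 38 of 368 and 17 of 149 Mono_Ly6c2 cells held 5 or more C1q UMIs. The part of background in the C1q counts was not tested.

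**Figure D5:**
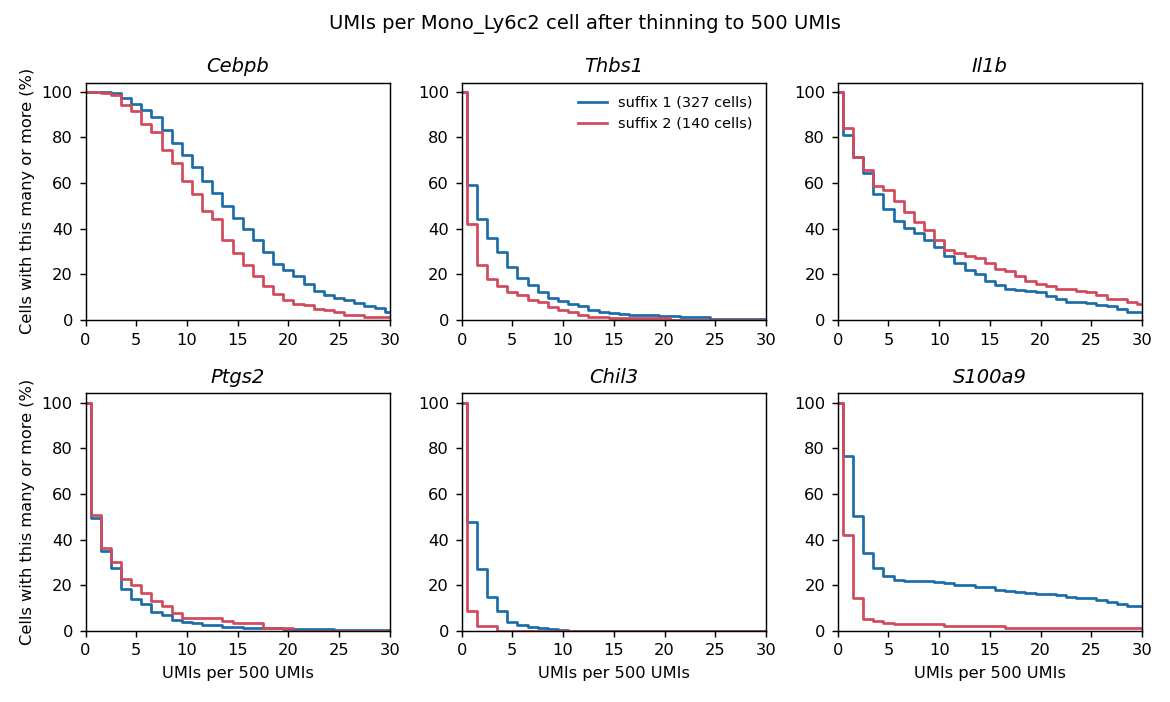
Share of Mono_Ly6c2 cells (percent, vertical axis) with at least the number of UMIs on the horizontal axis for 6 genes, each cell thinned to 500 UMIs, over 327 cells of suffix 1 (blue) and 140 of suffix 2 (red). A Cebpb UMI is seen in 99.7% and 100% of cells (B cells 55.7% and 45.0%) and a Thbs1 UMI in 59.0% and 42.1% (B cells 1.44% and 1.94%), and S100a9 has a long tail in suffix 1.

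The cells were not uniform. Ranked by the Fano factor (variance over mean of thinned counts), S100a9 and S100a8 led in both suffixes, at 37.6 and 27.3 in suffix 1 and 26.3 and 24.9 in suffix 2, where the median over ranked genes was 1.13 and 1.29. Slpi, Il1b, Il1a, Ptgs2 and Thbs1 were also among the 10 highest in both. S100a8 and S100a9 encode calprotectin, the most abundant cytosolic protein of neutrophils, which monocytes also hold.

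Between the suffixes, 13 of 1632 genes (0.797%) were higher in suffix 1 and 2 (0.123%) were lower. Among the 13 were S100a9 (234 against 37.2), S100a8 (217 against 78.3), Csf3r, the receptor of granulocyte colony-stimulating factor (6.73 against 2.36), Lcn2, the iron-binding lipocalin (11.1 against 1.77), and Chil3 (23.8 against 3.28). The 2 lower genes were Il10, the anti-inflammatory interleukin (0.772 against 4.05), and Tnfrsf9 (0.942 against 3.54). In all other cells the log2 ratio of suffix 1 to suffix 2 was 2.77 for Chil3, 1.44 for Lcn2, 1.08 for S100a9 and 0.80 for S100a8, but -1.02 for Fabp4 and -0.18 for Serpinb2. In Mono_Nr4a1 it was 2.41 for Chil3 and 0.47 for Lcn2, while S100a9 (-0.74), S100a8 (-0.84) and Hdc (-1.73) went the other way. Il10 came from 19 cells in suffix 1, 5 of which held 71.2% of its UMIs, and from 13 in suffix 2. Each suffix is treated as 1 library here, which no label states, and library and sample cannot be told apart.

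S100a9 made up 2% or more of the UMIs of 90 of 368 cells in suffix 1 (24.5%, 20.2 to 29.2) and of 4 of 149 in suffix 2 (2.68%, 0.736 to 6.73), a cut set after the values were seen. The cut runs through a continuum, with 18 of the suffix 1 cells within 0.5 percentage points of it. The same share was 98.0% in neutrophils, 40.3% in Macro_Vegfa, 19.0% in Mono_Nr4a1 and 6.44% in B cells of suffix 1. The 90 cells had a median of 2485 UMIs against 1733.5 in the rest. Neutrophil genes were higher in them: Csf3r stood at 16.4 against 2.75, Cxcr2, a chemokine receptor of neutrophils, at 5.44 against 0.443, and G0s2, an inhibitor of lipolysis, at 37.3 against 2.53. Thbs1 was lower, at 44.9 against 62.2, and Cebpb stood at 250 against 270, while Il1b was higher, at 168 against 149. These levels depend on the share taken by S100a8 and S100a9. With both out of the totals Thbs1 stood at 51.5 against 62.9, Fn1 at 87.4 against 87.6 and Cebpb at 287 against 273. No doublets were called, and the part of doublets with neutrophils or of free RNA was not tested.

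Without those cells 4 genes were higher in suffix 1 and 4 lower, of 1466 tested. Among the higher genes were Chil3 (26.1 against 2.67), Lcn2 (5.02 against 1.28) and Serpinb2. S100a9 itself set the cut, so its own ratio there says nothing. Il10, Tnfrsf9, Mmp9 and Abca1 were lower. Against all other cells of suffix 1, without them 110 of 3511 tested genes were higher and 198 lower. Interferon-stimulated genes then had 10 of 16 members higher, beside those 110 of 3511 over all genes.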

How the data were processed

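The authors deposited a table of UMI counts per gene and cell, unnormalized, and an annotation that names each barcode. Cell Ranger and Seurat and the build GRCm38 (mm10) come from the submitters' processing notes, with no versions or order given. 1 incomplete gene row, the last of the table, was left out. From the counts, levels per 10000 UMIs, ratios with exact conditional binomial 95% intervals, Poisson and Clopper-Pearson intervals were computed (scipy 1.17.1 and pandas 2.3.3 under Python 3.11.15, with numpy 2.4.6, and matplotlib 3.10.9 for figures). A count of 0 was replaced by 3 on that side of a ratio. Barcode suffixes match no sample label, so the groups of the study were not compared. No doublet caller was run. The named genes are the 15 highest and 10 lowest ratios to all other cells and 8 in each direction against each compared name, called in suffix 1 with the interval of suffix 2 on the same side of 1, plus fixed lists, the 20 highest levels and the 10 highest Fano factors. The members, lists and tests were chosen with earlier results of these data known. Coordinates are from the GENCODE M21 annotation of GRCm38, matched by symbol for 4067 of 4099 rows. The rule was tried on Poisson counts simulated for the summed UMIs, for the comparison with all other cells. In suffix 1 it found 74% of genes raised 3-fold, 98% of those raised 6-fold, 40% of those lowered 3-fold and 62% of those lowered 6-fold. It called 0 of 3304 unchanged genes there. In suffix 2 the shares found were 66%, 94%, 26% and 48%. The simulation held no spread between cells, so it cannot show how often genes carried by few cells are called.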

Additional observations from a re-analysis of the deposited data

How the results depend on the processing

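Over the counts and shares of the report, 129 of 150 values under another setting kept within 1.5 times the value given, and 21 did not. With S100a8 and S100a9 out of the totals, 56 genes were higher than in all other cells in suffix 1 and 54 in suffix 2. With myeloid names alone as the other side, 69 and 67 were lower. By UMIs per cell in suffix 2, 31 were higher and 337 lower than in all other cells, and 14 and 25 than in Mono_Nr4a1. By UMIs per cell against Macro_Vegfa, 8 were higher and 463 lower in suffix 1, and 4 and 424 in suffix 2; against Macro_Maf, 17 and 943, and 17 and 490. With no count minimum, 13 genes were lower than in Mono_Nr4a1 in suffix 2. Between suffixes, 6 genes were lower in suffix 1 with no count minimum and 1 without the 5% of cells with the most UMIs. Without cells of high S100a9, 4 were higher and 4 lower. These last settings between suffixes, and the S100a9 cut, were added after seeing the data. Of 682 single-gene values 121 moved and 5 reversed, all in suffix 1 against myeloid names alone: Col3a1 0.16, Serping1 0.79, Col6a3 1.29, Col5a2 1.46 and Fbn1 0.35 (log2). In Mono_Ly6c2 cells these rested on 10 UMIs for Col3a1, 3 for Col5a2 and 1 each for Serping1, Col6a3 and Fbn1. UMIs per cell scale with depth and cell size together, and the causes were not tested. No paired analysis was possible because no column carries a sample. Leaving out a replicate was not run, since suffixes match no sample. Depth limits genes under 50 UMIs, and intervals cover counting error only.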
